A study of Mus musculus with 32 samples.

Results

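AML12 is a mouse hepatocyte line. The data here ask how far the effect of a treatment on its RNA held, faded, appeared or turned over between a pair of sampling times. The labels abbreviate the treatment as DEX, the usual short form of dexamethasone, a synthetic glucocorticoid, and those of the cardiac libraries speak of DEX synchronization. Of the 32 RNA-seq libraries of the series, the 16 of AML12 were used, all of them: 4 of control cells and 4 of DEX cells at 17 h, and 4 of each at 25 h. All 16 come from the same line, and the labels name no other agent and no dose. The sample descriptions write the times as ZT17 and ZT25, and the labels do not say from which event the hours count. The other 16 libraries, of a cardiac line, were not used here. For each gene the DEX effect is the log2 ratio of DEX to control cells at the same time, and the quantity described is the 25 h effect minus the 17 h effect, called the difference below. A difference above 0 means that DEX cells stood higher, relative to control cells, at 25 h than at 17 h. Each time has control libraries of its own, so a difference can come from movement of the DEX cells, of the control cells or of both.

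The cell clock is a loop of transcription factors. BMAL1 (gene Arntl) and CLOCK bind E-boxes and activate the Per, Cry and Nr1d genes and the output factors Dbp and Tef, while PER and CRY proteins repress BMAL1 and CLOCK, and the REV-ERB proteins of Nr1d1 and Nr1d2 repress Arntl. A glucocorticoid pulse acts through the glucocorticoid receptor, which induces Per1 among other genes and sets the phase of this loop in cultured cells and in liver. The same receptor raises a set of direct targets, such as Fkbp5, Tsc22d3 and Sgk1, and holds down inflammatory genes that NF-kB drives.

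Library totals lay between 15032450 and 17472840 counts. Of 12 hepatocyte markers, 4 reached an average of 10 CPM (the count scaled to library size), among them Apob, Hnf4a and Foxa2, while Alb, Ttr, Apoa1 and Trf lay between 1.05 and 1.43 CPM and no value of Cyp3a11 was found. Keratins 8 and 18 and the bile duct genes Krt19, Krt7 and Spp1 were high, at 454 to 2630 CPM. Of the same list Cdh1 averaged 289 and Sox9 36.2 CPM, and no value of Epcam was found. The line thus carried part of the hepatocyte programme beside part of the epithelial and bile duct genes. Of 7 immune markers Csf1r averaged 7.25 CPM, and Ptprc, Cd3e, Itgam and Lyz2 lay under 1, with no value found for Adgre1. Their sum was 6.22 to 7.34 CPM in control and 4.11 to 5.89 in DEX libraries at 17 h, and 6.64 to 8.29 against 10.1 to 11.7 CPM at 25 h. A pair of libraries stood apart. Compared gene by gene, the counts of DEX 17 h replicate 2 gave a chi-square over degrees of freedom between 12.4 and 16.5 against its group, where the other 3 gave 2.27 to 3.73 among themselves, and mitochondrial transcripts made up 2.65% of its counts against 1.64% to 1.85%. For DEX 25 h replicate 4 the range was 3.64 to 4.69, against 2.20 to 3.45 among the other 3. Their part in the results was not tested beyond leaving them out. Nothing in the labels says that replicates are separate cultures, so the p-values speak of the spread among these libraries, which may be only technical.

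Most genes with a called difference had a DEX effect at 17 h that was no longer called at 25 h. A call means a Benjamini-Hochberg adjusted p under 0.05 in edgeR's quasi-likelihood test, over all 14114 genes tested. The difference was called for 2283 genes, 16.2% of those tested, with 1116 above 0 (7.91%) and 1167 below 0 (8.27%). Of these, 294 differed at least 2-fold, 178 above and 116 below 0. With total counts as the only scaling, 1406 genes lay above and 853 below 0, so the even split rests on the scaling, while the TMM, RLE, DESeq2 and voom fits gave 47.3% to 49.2% above 0. Across all genes the median difference was 0.0062, and 0.0488 with total counts only.

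Sorted by what was called at each time, 1681 genes lost the effect (11.9% of tested genes): it was called at 17 h, not at 25 h, and the difference was called. Another 325 genes (2.3%) were weakened, called at both times with the same sign and smaller at 25 h. Strengthened were 4 genes (0.0283%), Cdc6, Gins2, Dna2 and Fgf1. The sign was reversed, with both effects called, in 77 genes (0.546%), 44 from a rise to a fall and 33 from a fall to a rise. The effect was gained in 104 genes (0.737%), 40 rises and 64 falls, and 92 genes (0.652%) had a called difference with neither effect called. A further 915 genes (6.48%) kept the effect: called at both times with the same sign, the difference not called. For 811 of these the 95% interval of the difference lay within 1.5-fold. That margin is wider than the median 17 h effect of the kept genes, so it does not show that the whole effect held. No gene had opposite called effects without a called difference. These classes are built from contrasts that share libraries, so they describe the genes and are not tests of their own.

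The lost class holds 866 rises and 815 falls of 17 h. Its median absolute effect was 0.39 on the log2 scale at 17 h and 0.069 at 25 h. An effect that is not called is not shown to be 0. For 1549 of the 1681 genes the 95% interval of the 25 h effect lay within 1.5-fold of no change. That margin is wider than the median 17 h effect of the class, so this count does not show that the effect was gone. At 25 h 307 lost genes still had an unadjusted p under 0.05, 119 of them with the sign opposite to that of 17 h. In all, 838 lost genes had the same sign at both times and 843 the opposite sign. Weakened genes retained a median of 38.7% of a rise and 37.3% of a fall, on the log2 scale. For a further 2417 genes the 17 h effect was called but neither the 25 h effect nor the difference was, so whether they lost it cannot be said from these libraries. In bulk RNA, fewer cells that express a gene and less RNA of it per cell cannot be told apart.

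**Figure D1:**
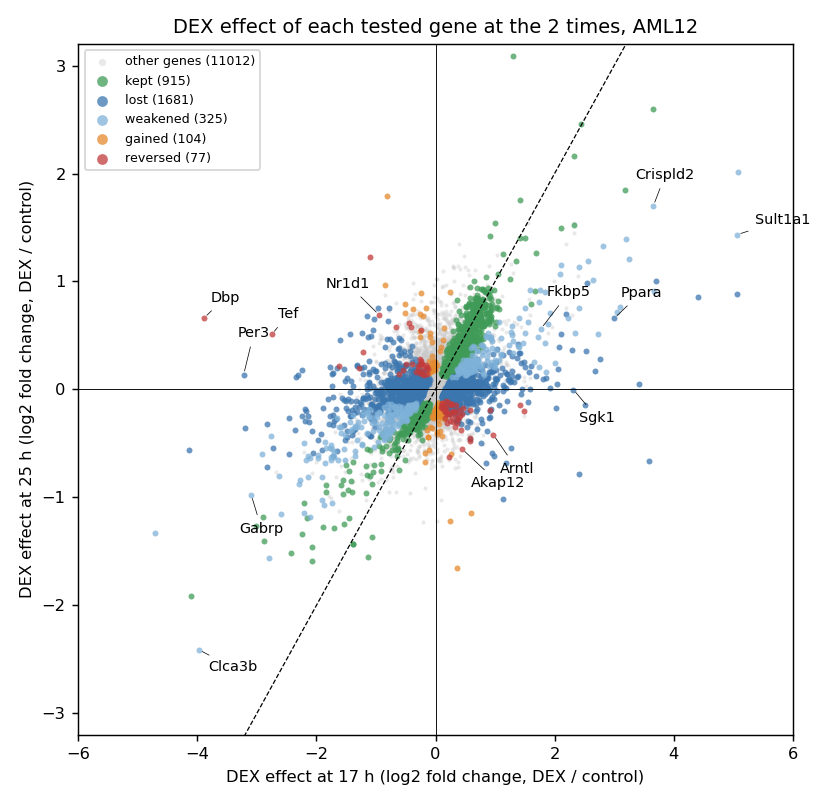
Each point is a tested gene, with its DEX effect at 17 h on the x axis and at 25 h on the y axis (log2 fold change of DEX over control, 4 libraries a group), coloured by class with the number of genes in the key; the dashed line marks equal effects. Lost genes lie along the horizontal axis, kept genes near the dashed line, and reversed genes such as Dbp, Tef and Arntl in the upper left and lower right quadrants. Zbtb16, with 0 counts in control cells, lies outside the axes.

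Larger effects at 17 h changed more often. Of 517 genes that DEX moved at least 2-fold at 17 h, 324 had a called difference (62.7%), 195 of them lost and 121 weakened. Of 856 genes moved 1.5 to 2-fold, 410 had one (47.9%), and of 1989 genes moved 1.2 to 1.5-fold, 892 (44.8%). Of 2057 genes moved less than 1.2-fold, 461 had one (22.4%), and 1360 stayed undecided. A small effect leaves less room for a called loss. The median share of the 17 h effect left at 25 h was 24.9% for the largest effects, 30.5% and 27% for those between, and 26.2% for the smallest. Picking genes by their call at 17 h by itself lowers these shares.

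The DEX cells moved more than the control cells in most lost genes. Among the 2283 genes, the change from 17 h to 25 h was called in DEX cells only for 947, in both for 1018, in control cells only for 304 and in neither for 14. Over all tested genes the change with time was called for 56% in DEX cells and 43.5% in control cells. DEX cells made the larger move in 1382 of the 1681 lost genes and control cells in 299. Of the 866 lost rises, 710 fell with time in DEX cells, and of the 815 lost falls, 722 rose. In the gained class the control cells made the larger move in 57 of 104 genes. In the 64 gained falls a rise with time was called in control cells for 36 and a fall in DEX cells for 29. In the 44 rise-to-fall reversals these numbers were 28 and 32, and over all 77 reversed genes DEX cells made the larger move in 51. DEX cells also made it in 4653 of the 8266 genes with neither effect nor difference called and in 553 of the 915 kept genes. The share among reversed genes is not far above those. DEX cells made the larger move in 302 of the 325 weakened genes too. They did so in 1896 of the 2417 genes called at 17 h only, without a called difference. The share among lost genes is near that of these 2417. DEX 25 h replicate 4 was the library nearest to the 17 h DEX level in 262 of the 325 weakened genes (80.6%), in 591 of the 915 kept genes (64.6%), in 680 of the 1681 lost genes (40.5%) and in 19 of the 77 reversed genes (24.7%).

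**Figure D2:**
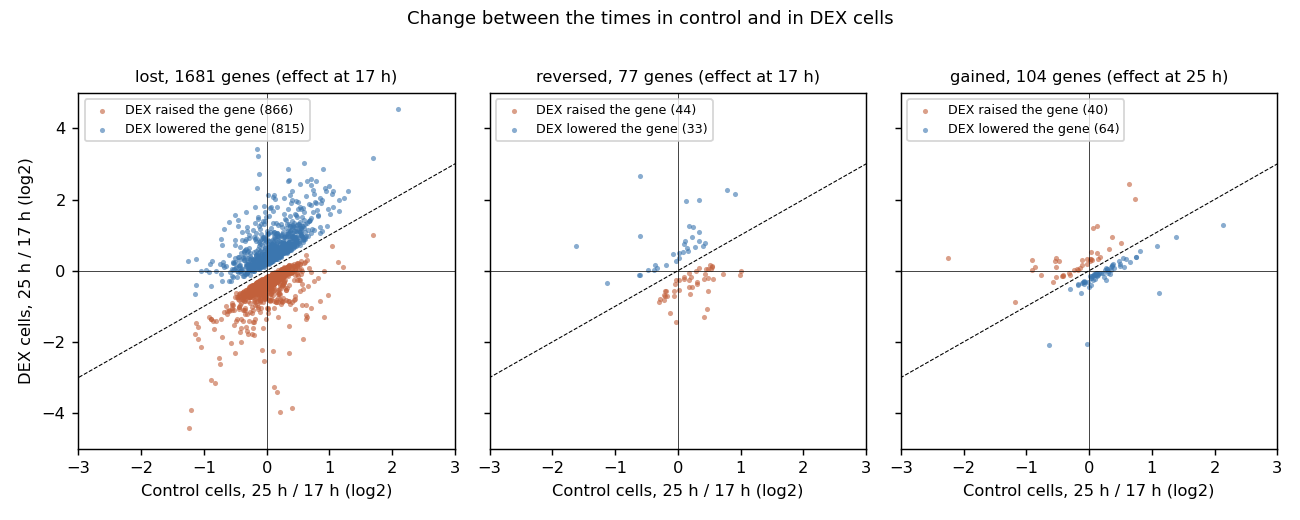
Change from 17 h to 25 h in control cells (x axis) and in DEX cells (y axis), both as log2 fold changes with 4 libraries a group, for lost, reversed and gained genes; colour gives the direction of the DEX effect at the time named above each panel, and the dashed line marks equal changes. The 866 lost rises lie below the line and the 815 lost falls above it, spread mainly along the y axis.

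The classes fell unevenly over gene lists, which were chosen with earlier results of these data known and are described by counts. Of 17 core clock genes 6 were reversed and 5 lost, and of 26 glucocorticoid-responsive genes 10 were lost and 7 weakened. Of 29 chemokine and cytokine genes 14 were lost, and all 37 genes of G2 and mitosis were kept. Over all genes 11.9% were lost, 2.3% weakened, 0.546% reversed and 6.48% kept. In lost and weakened genes the sign of the difference follows from that of the 17 h effect, so within a list it is no separate result. Ribosomal protein genes had 0 called differences among 43 tested in edgeR's test, with 2 at an unadjusted p under 0.05 and 0 by DESeq2 and 0 by limma-voom. The mitochondrially encoded genes of the respiratory chain had 0 among 12, with 0 at an unadjusted p under 0.05 and 0 by DESeq2 and 0 by limma-voom. Leaving out DEX 17 h replicate 2 gave 2657 called differences over all genes in place of 2283, and leaving out DEX 25 h replicate 4 gave 2296. Kept genes numbered 1097 and 621 then, and lost genes 1788.0 and 1811.

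**Figure D3:**
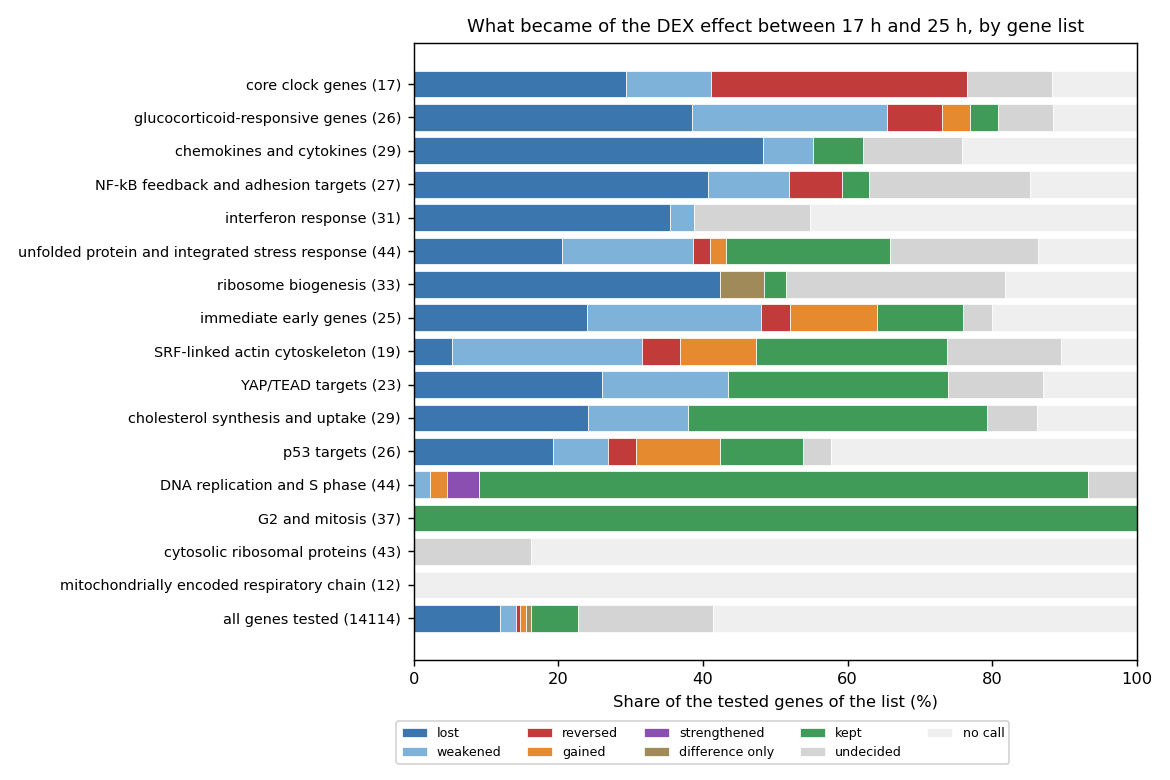
Share of the tested genes of each list (x axis, %) by what became of the DEX effect between the times, with the number of tested genes after each name; undecided genes were called at only a single time without a called difference. All 37 genes of G2 and mitosis were kept, while the core clock list held 6 reversed, 5 lost and 2 weakened genes of 17.

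Of 17 core clock genes tested, 13 had a called difference (76.5%, against 16.2% of all genes), 9 above and 4 below 0, with a median of 0.51. Reversed were 6 genes, Dbp, Tef, Nr1d1, Nr1d2, Arntl and Nfil3, 5 were lost, Per2, Per3, Cry1, Cry2 and Clock, and 2 were weakened, Per1 among them. The median absolute DEX effect of the list was 1.01 at 17 h and 0.22 at 25 h, and it was smaller at 25 h for 16 of the 17 genes. That share is like the one over all genes called at 17 h, 5028 of 5419. The change from 17 h to 25 h was called in DEX cells for 15 of the 17 clock genes and in control cells for 8. Without both libraries that stood apart, 9 lay above and 4 below 0 and 8 were reversed, and under total counts only the call of Clock was lost.

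Among the clock genes the output factors moved far. Dbp and Tef encode the related transcription factors DBP and TEF, which activate genes through D-boxes. Dbp stood at 7.51, 10.4, 8.17 and 8.90 CPM in the control libraries of 17 h and at 0.665, 0.317, 0.549 and 0.802 in the DEX libraries. Dbp at 25 h read 8.63, 8.07, 8.98 and 10.5 CPM in control and 14.3, 14.7, 13.8 and 14.5 in DEX libraries. All 4 DEX libraries lay below the controls at 17 h and above them at 25 h, and such a gap between the groups was seen for 34.1% of all genes at 17 h and 18% at 25 h. The result was a difference of 4.55 ± 0.26 (adjusted p = 9.59e-14). No change was called in control cells (a change with time of 0.050 ± 0.11, adjusted p = 0.749), while DEX cells rose by 4.60 ± 0.24.

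Tef stood at 90.6, 89.5, 91.7 and 90.1 CPM in the control libraries of 17 h and at 12.5, 14.3, 12.5 and 14.6 in the DEX libraries. Tef at 25 h read 56.9, 60.4, 62.8 and 59.4 CPM in control and 85.3, 86.0, 90.9 and 79.5 in DEX libraries. Tef was low in all 4 DEX libraries at 17 h and high in all 4 at 25 h, with no overlap at either time. Its difference was 3.26 ± 0.077 (adjusted p = 1.46e-19). Here control cells fell with time by 0.59 ± 0.048 and DEX cells rose by 2.66 ± 0.060. Per3, a paralog of the Per repressors, was also low with DEX at 17 h. Per3 stood at 31.0, 32.3, 31.9 and 32.3 CPM in the control libraries of 17 h and at 3.81, 3.99, 2.81 and 3.02 in the DEX libraries. Per3 at 25 h read 28.6, 31.4, 30.6 and 25.8 CPM in control and 38.2, 32.2, 32.8 and 24.7 in DEX libraries. Control and DEX libraries of Per3 were far apart at 17 h and overlapped at 25 h, a difference of 3.36 ± 0.17 (adjusted p = 1.54e-13).

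Promoter windows are shown for 4 clock genes that were reversed or lost, Dbp, Tef, Nr1d1 and Per3, and for Ciart, which had no called effect or difference, because E-boxes and D-boxes are the elements through which this loop acts. Each window runs from 250 bases before to 50 bases after an annotated start, from RefSeq on GRCm38.p6, and capitals mark the E-box CACGTG or the D-box TTANGTAA, searched on both strands. The Per3 window (chr4:151044616-151044915, minus strand) held 2 D-boxes, the window at start 1 of the 2 listed for Tef (chr15:81802423-81802722, plus strand) 1 E-box, and that of Ciart (chr3:95882179-95882478, minus strand) 3 E-boxes. The windows of Dbp (chr7:45704997-45705296, plus strand) and Nr1d1 (chr11:98775328-98775627, minus strand) held neither. No E-box overlapped a D-box in them. The window at start 2 of Tef (chr15:81811164-81811463, plus strand), not printed, also held 1 E-box. Of 32851 windows in all, 7.15% held the E-box and 2.32% the D-box. Of the 12437 windows of tested genes, 9.83% held the E-box and 1.56% the D-box.
Per3: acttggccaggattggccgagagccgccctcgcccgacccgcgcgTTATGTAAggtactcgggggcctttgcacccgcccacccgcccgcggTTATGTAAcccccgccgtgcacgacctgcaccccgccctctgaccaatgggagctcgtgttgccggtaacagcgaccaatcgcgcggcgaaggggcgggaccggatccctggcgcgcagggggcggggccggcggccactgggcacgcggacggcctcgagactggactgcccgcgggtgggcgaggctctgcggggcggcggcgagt
Tef: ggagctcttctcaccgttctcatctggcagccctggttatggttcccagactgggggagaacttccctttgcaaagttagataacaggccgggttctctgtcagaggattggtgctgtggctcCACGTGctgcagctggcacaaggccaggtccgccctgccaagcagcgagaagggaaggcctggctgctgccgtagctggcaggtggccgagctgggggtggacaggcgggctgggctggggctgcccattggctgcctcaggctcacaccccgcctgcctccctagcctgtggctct
Ciart: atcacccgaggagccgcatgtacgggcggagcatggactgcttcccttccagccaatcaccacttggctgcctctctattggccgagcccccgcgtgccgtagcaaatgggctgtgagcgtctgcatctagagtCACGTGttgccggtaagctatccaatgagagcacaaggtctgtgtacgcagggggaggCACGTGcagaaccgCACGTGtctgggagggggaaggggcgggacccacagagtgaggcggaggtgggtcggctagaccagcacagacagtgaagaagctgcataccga
Dbp: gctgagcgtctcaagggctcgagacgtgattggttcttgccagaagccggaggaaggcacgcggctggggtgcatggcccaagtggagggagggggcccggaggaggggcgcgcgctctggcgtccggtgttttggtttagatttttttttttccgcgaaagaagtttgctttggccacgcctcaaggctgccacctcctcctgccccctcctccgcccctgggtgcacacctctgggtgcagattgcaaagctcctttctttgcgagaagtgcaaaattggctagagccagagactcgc
Nr1d1: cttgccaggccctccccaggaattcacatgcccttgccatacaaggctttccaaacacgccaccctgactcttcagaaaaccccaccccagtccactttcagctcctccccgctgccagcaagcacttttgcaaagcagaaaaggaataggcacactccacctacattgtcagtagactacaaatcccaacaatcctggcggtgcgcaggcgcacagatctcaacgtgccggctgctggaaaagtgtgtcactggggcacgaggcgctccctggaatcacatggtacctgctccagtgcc

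Ciart, a repressor of BMAL1 and CLOCK with E-boxes in its window, was not called. It stood at 1.22, 2.27, 1.49 and 1.86 CPM in control and 1.03, 1.58, 1.04 and 1.85 in DEX libraries at 17 h. At 25 h Ciart read 4.38, 3.40, 3.88 and 3.30 CPM in control and 3.11, 4.62, 3.23 and 4.09 in DEX libraries. Its libraries overlapped at both times, and the difference was 0.33 ± 0.29 (adjusted p = 0.506). A match or its lack says only which letters are in a window. Rorb (0.18 ± 0.12), Bhlhe40 (0.027 ± 0.085) and Bhlhe41 (-0.15 ± 0.15) were not called either, with adjusted p-values of 0.349, 0.885 and 0.568.

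**Figure D4:**
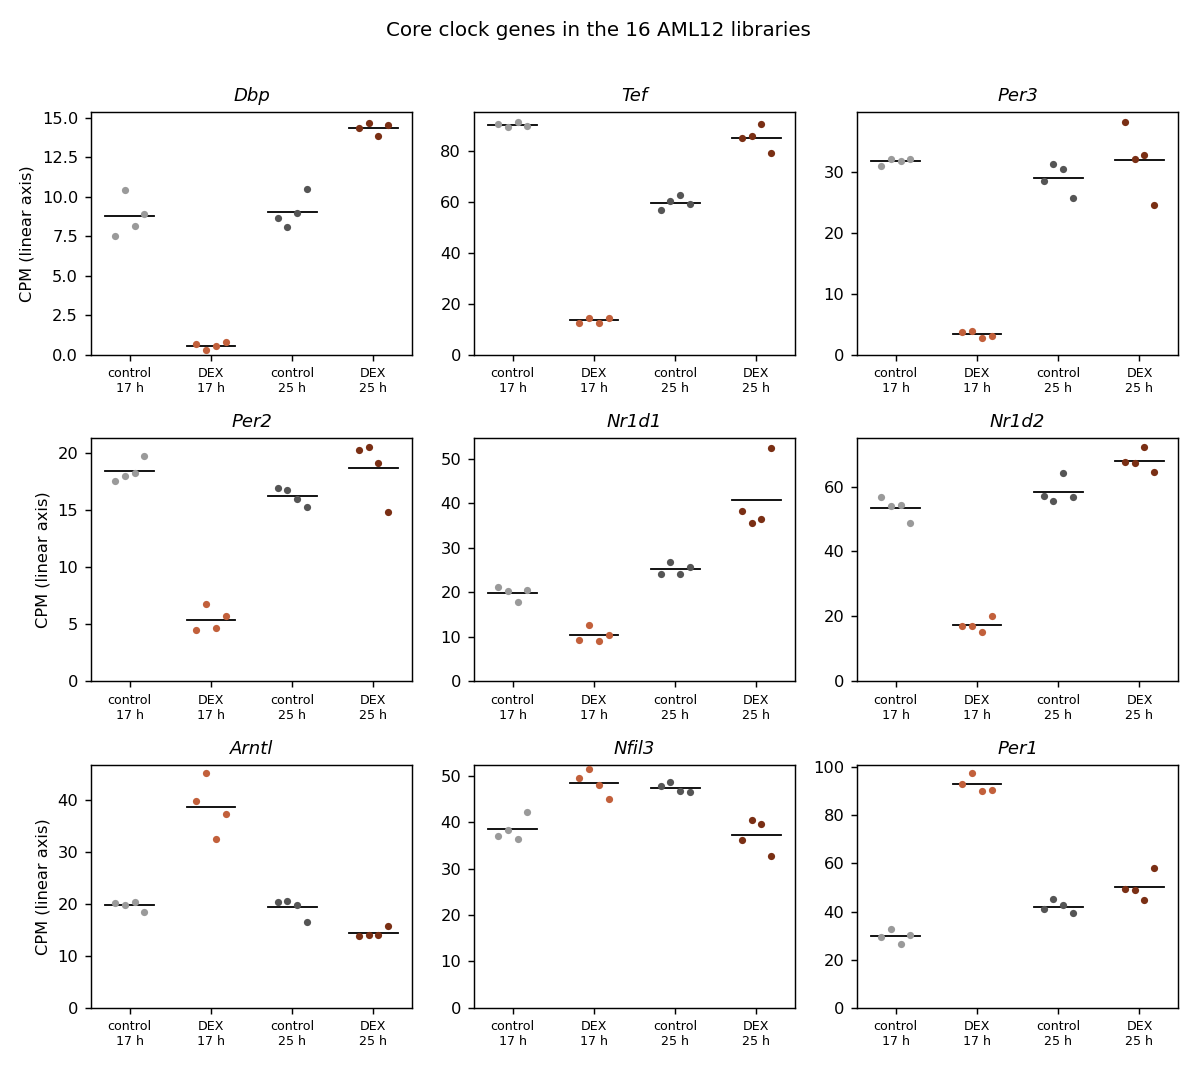
Level of 9 core clock genes (CPM, linear axes from 0) in the 4 libraries of each AML12 group, replicates 1 to 4 from left to right, with the group mean as a line. Dbp, Tef, Per3, Per2 and Nr1d2 are lowest in the DEX libraries of 17 h, while Arntl and Per1 are high there.

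Nr1d1 and its target Arntl went in opposite directions. Nr1d1, which encodes REV-ERB alpha, is among the reversed genes. Nr1d1 stood at 21.2, 20.2, 17.9 and 20.5 CPM in the control libraries of 17 h and at 9.19, 12.7, 9.09 and 10.3 in the DEX libraries. Nr1d1 at 25 h read 24.2, 26.8, 24.1 and 25.8 CPM in control and 38.4, 35.6, 36.5 and 52.5 in DEX libraries. DEX libraries were the low ones at 17 h and the high ones at 25 h, with replicate 4 of 25 h above the other 3. The difference was 1.64 ± 0.16 for Nr1d1 and 1.84 ± 0.10 for Nr1d2, its REV-ERB beta relative (adjusted p = 3.22e-08 and 8.23e-13). Arntl moved the other way. Arntl stood at 20.2, 19.9, 20.3 and 18.4 CPM in the control libraries of 17 h and at 39.9, 45.2, 32.5 and 37.3 in the DEX libraries. Arntl at 25 h read 20.4, 20.5, 19.8 and 16.6 CPM in control and 13.8, 13.9, 14.0 and 15.8 in DEX libraries. All DEX libraries were above the controls at 17 h and below them at 25 h (difference -1.40 ± 0.12, adjusted p = 1.16e-08). No change with time was called in control cells for Arntl (-0.032 ± 0.089), against -1.43 ± 0.087 in DEX cells.

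Nfil3, a repressor that binds the same D-boxes as DBP and TEF, went the way of Arntl. Nfil3 stood at 37.0, 38.4, 36.4 and 42.2 CPM in the control libraries of 17 h and at 49.5, 51.5, 48.1 and 44.9 in the DEX libraries. Nfil3 at 25 h read 47.9, 48.7, 46.6 and 46.6 CPM in control and 36.1, 40.4, 39.6 and 32.6 in DEX libraries. Its DEX libraries lay above the controls at 17 h and below them at 25 h (difference -0.68 ± 0.088, adjusted p = 3.47e-06), and its control cells rose with time by 0.30 ± 0.062. Per1, a direct glucocorticoid receptor target, kept its sign. Per1 stood at 29.6, 32.7, 26.4 and 30.1 CPM in the control libraries of 17 h and at 93.1, 97.5, 90.1 and 90.7 in the DEX libraries. Per1 at 25 h read 41.2, 45.3, 42.5 and 39.2 CPM in control and 49.4, 48.8, 44.7 and 57.9 in DEX libraries. Per1 was high in DEX cells at both times, by 1.65 ± 0.069 and 0.26 ± 0.068 (difference -1.39 ± 0.10, adjusted p = 1.67e-10), and was not called at 25 h without DEX 25 h replicate 4.

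Per2, Cry1 and Cry2 lost a fall. Per2 stood at an effect of -1.77 ± 0.12 at 17 h and 0.21 ± 0.10 at 25 h, with a difference of 1.98 ± 0.15. Without DEX 25 h replicate 4, which read 14.8 CPM against 19.1 to 20.5 in the other 3, Per2 counted as reversed. The cryptochromes went from -1.01 ± 0.12 to -0.35 ± 0.12 (Cry1) and from -1.02 ± 0.091 to -0.031 ± 0.083 (Cry2), with differences of 0.66 ± 0.17 and 0.99 ± 0.12 (adjusted p = 0.00954 and 1.78e-06), and Cry1 counted as weakened without DEX 17 h replicate 2. Clock lost a small rise (difference -0.24 ± 0.070, adjusted p = 0.0187, 0.0507 without control 17 h replicate 2).

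Most rises of glucocorticoid-responsive genes were lost or weakened, 15 of 18. Over all genes, 866 of the 2892 rises called at 17 h were lost and 144 weakened. Of 26 tested, 20 had a called difference, 2 above and 18 below 0 (8.27% of all genes were below 0), with a median of -1.06. In class, 10 were lost, 7 weakened, 2 reversed (Lcn2 and Errfi1), 1 gained (Cdkn1a) and 1 kept (Zbtb16, described next), and the 2 above 0 were Cebpd and Il1r1. At 17 h 18 rises and 4 falls were called (20.5% and 17.9% of all genes), and at 25 h 8 and 3 (6.79% and 4.96%). Without DEX 25 h replicate 4, 13 were lost and 6 weakened. Zbtb16, which encodes the transcription factor PLZF, counts as kept only by the form of the rule. It had 0 counts in all 8 control libraries, and there edgeR's fit gave no usable error for a fold change or for the difference. DESeq2, limma-voom and the linear CPM scale each called the difference below 0 (adjusted p = 0.00121, 3.72e-09 and 3.77e-13). Its DEX libraries read 13.7, 12.0, 13.1 and 13.8 CPM at 17 h and 0.293, 0.173, 0.124 and 0.305 at 25 h, a fall with time of 5.82 ± 0.33 on the log2 scale.

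Sgk1 (ENSMUSG00000019970, chromosome 10, 21882184 to 21999903, plus strand in GRCm38), a kinase that regulates sodium channels and other transporters, lost its rise. Sgk1 stood at 62.9, 54.7, 62.0 and 50.9 CPM in the control libraries of 17 h and at 290.2, 314, 265 and 278 in the DEX libraries. Sgk1 at 25 h read 32.3, 28.9, 35.1 and 33.4 CPM in control and 29.3, 31.8, 34.7 and 33.8 in DEX libraries. The groups were far apart at 17 h and overlapped at 25 h, where the effect lay within -0.16 and 0.16 (95% interval). Its difference was -2.32 ± 0.10 (adjusted p = 4.35e-14). Control cells of Sgk1 fell with time as well, by 0.83 ± 0.074, and DEX cells by 3.15 ± 0.069.

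The phosphatase gene Dusp1, which switches off MAP kinases, had the same shape, with an effect of 1.18 ± 0.060 at 17 h and 0.0083 ± 0.066 at 25 h (difference -1.17 ± 0.089). Klf9, a transcription factor, went from 1.24 ± 0.049 to 0.092 ± 0.049 (difference -1.14 ± 0.069). Ctgf, a matrix growth factor gene outside the list, went from 119 ± 13.1 to 414 ± 13.3 CPM (mean ± SD, n = 4) with DEX at 17 h and from 70.5 ± 4.45 to 75.6 ± 9.72 CPM at 25 h (difference -1.71 ± 0.10, adjusted p = 1.75e-11). No effect was called at 25 h in any of these 3 genes.

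Fkbp5 and Tsc22d3 kept a remnant. Fkbp5 encodes a co-chaperone that dampens the glucocorticoid receptor, and Tsc22d3 the anti-inflammatory protein GILZ. Fkbp5 stood at 104, 107, 103 and 106 CPM in the control libraries of 17 h and at 374, 314, 375 and 374 in the DEX libraries. Fkbp5 at 25 h read 99.6, 98.2, 96.95 and 97.7 CPM in control and 140.2, 136, 141 and 162 in DEX libraries. DEX libraries of Fkbp5 were above the controls at both times, by 1.77 ± 0.055 and 0.56 ± 0.056, a difference of -1.21 ± 0.079 (adjusted p = 4.76e-11). Tsc22d3 stood at 33.9, 37.1, 33.6 and 37.7 CPM in the control libraries of 17 h and at 120.2, 122, 114 and 117 in the DEX libraries. Tsc22d3 at 25 h read 52.2, 55.6, 56.6 and 53.5 CPM in control and 62.3, 59.5, 62.4 and 66.7 in DEX libraries. For Tsc22d3 the effect went from 1.73 ± 0.049 to 0.20 ± 0.048 without overlap at either time (difference -1.53 ± 0.068, adjusted p = 5.16e-14), and its control cells rose by 0.61 ± 0.051 with time.

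Other weakened rises had larger 25 h effects than Fkbp5 on the log2 scale, though not in each case a larger share of the 17 h effect. Sult1a1, a phenol sulfotransferase, stood at 0.321, 0.195, 0.514 and 0.291 CPM in control and 12.7, 11.2, 9.34 and 12.8 in DEX libraries at 17 h. Sult1a1 at 25 h read 1.42, 0.485, 0.738 and 0.810 CPM in control and 1.58, 1.501, 1.74 and 4.46 in DEX libraries, with replicate 4 well above the other 3. Its difference was -3.64 ± 0.61 (adjusted p = 5.63e-05). The secreted protein gene Crispld2 (3.66 at 17 h and 1.70 at 25 h, difference -1.96 ± 0.43), the plasma protein gene Orm1 (3.67 at 17 h and 0.91 at 25 h, -2.76 ± 0.30), the metalloprotease Adam12 (3.05 at 17 h and 0.72 at 25 h, -2.33 ± 0.15) and the sulfotransferase Sult1d1 (3.198 at 17 h and 1.39 at 25 h, -1.81 ± 0.33) were weakened likewise. Orm1 and the sulfotransferases have close paralogs, between which reads may have been split. DEX 25 h replicate 4 had the highest value of its group in all 5 of these genes.

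Of 21 nuclear receptor and co-regulator genes tested, 1 difference was above and 5 were below 0 (7.91% and 8.27% of all genes). At 17 h 4 rises and 5 falls were called, 4 genes were lost, 1 was weakened and 1 kept, and 11 had neither effect nor difference called. Ppara, the receptor for fatty acids, stood at 1.16, 0.844, 0.971 and 1.22 CPM in control and 8.59, 7.92, 7.75 and 9.63 in DEX libraries at 17 h. At 25 h Ppara read 1.01, 1.15, 1.17 and 1.16 CPM in control and 1.41, 1.56, 1.37 and 2.81 in DEX libraries. The 17 h groups were far apart, and the 25 h groups lay close together without overlap, with DEX replicate 4 highest. Its difference was -2.34 ± 0.31 (adjusted p = 3.97e-06), and its 25 h effect of 0.66 ± 0.23 was not called (adjusted p = 0.0604), though it was without DEX 17 h replicate 2. Nr1h4, the bile acid receptor FXR, went from 2.01 ± 0.071 to 0.25 ± 0.076 (difference -1.76 ± 0.10), the latter not called without DEX 25 h replicate 4. Hnf4a, the hepatocyte factor, lost a fall (-0.54 at 17 h and 0.10 at 25 h, difference 0.64 ± 0.058, adjusted p = 1.32e-08). The other named lost rises included the kinesin Kif17 (-3.56 ± 0.81), the glycosyltransferase Extl1 (-3.18 ± 0.37) and the small GTPase Arl4d (-1.98 ± 0.11), each given as its difference.

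Of the falls called at 17 h, 13 of 19 were lost among chemokine and cytokine genes and 11 of 20 among NF-kB targets. Over all genes, 815 of the 2527 falls called at 17 h were lost. Of 29 chemokine and cytokine genes tested, 15 differences were above and 1 below 0 (7.91% and 8.27% of all genes), with a median of 0.86, and 14 of them were lost, 13 as falls. The single difference below 0 was that of the cytokine Il34, a lost rise. In lost and weakened genes the sign of the difference follows from that of the 17 h effect, so it is no separate result. Of 27 NF-kB feedback and adhesion targets, 15 were above and 1, Lcn2, below 0, with a median of 0.39, and 11 were lost, all falls. At 25 h 4 falls were called among the chemokines and 6 among the NF-kB targets, against 19 and 20 at 17 h.

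Ccl20 (ENSMUSG00000026166, chromosome 1, 83116766 to 83119167, plus strand in GRCm38), a chemokine that draws T cells and dendritic cells, showed this. Ccl20 stood at 85.0, 82.6, 81.8 and 94.7 CPM in the control libraries of 17 h and at 17.8, 16.7, 16.3 and 22.2 in the DEX libraries. Ccl20 at 25 h read 129, 123, 139.9 and 130.3 CPM in control and 154, 153, 158 and 128 in DEX libraries. The DEX libraries were far below the controls at 17 h. At 25 h 3 of them were above every control and replicate 4 lay within the controls' range. The 25 h effect of 0.18 ± 0.067 was not called (adjusted p = 0.0796). Its difference was 2.42 ± 0.11 (adjusted p = 4.67e-14). Without DEX 25 h replicate 4 Ccl20 counted as reversed, as it did without DEX 17 h replicate 2.

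Cxcl5, a neutrophil chemokine, is a more abundant case. Cxcl5 stood at 2296, 2141, 2248 and 2215 CPM in the control libraries of 17 h and at 734, 806, 789 and 810.5 in the DEX libraries. Cxcl5 at 25 h read 2046, 1944, 2167 and 2205 CPM in control and 2049, 1935, 2052 and 1718 in DEX libraries. A wide gap at 17 h became overlap at 25 h (difference 1.40 ± 0.073, adjusted p = 9.06e-13), and control cells showed no called change with time (-0.090 ± 0.051). The monocyte chemokine Ccl2 (-0.92 at 17 h and -0.060 at 25 h, difference 0.86 ± 0.068) and Ccl9 (-1.48 at 17 h and 0.10 at 25 h, 1.58 ± 0.086) were lost too. Ccl3, a macrophage chemokine, read 1 count over the whole DEX group of 17 h, and no fold is given for it.

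Among the NF-kB feedback genes, the apoptosis inhibitor Birc3 (-0.76 at 17 h and -0.015 at 25 h, difference 0.74 ± 0.065), the RNase gene Zc3h12a (-0.93 at 17 h and -0.044 at 25 h, 0.89 ± 0.080) and the coregulator Nfkbiz (-0.69 at 17 h and -0.10 at 25 h, 0.59 ± 0.056) were lost, Nfkbiz as a weakened gene without DEX 17 h replicate 2. Ptgs2, which encodes the prostaglandin synthase COX-2, kept part of its fall. Ptgs2 stood at 30.9, 28.2, 27.5 and 33.95 CPM in the control libraries of 17 h and at 9.74, 10.1, 9.70 and 9.26 in the DEX libraries. Ptgs2 at 25 h read 29.8, 30.5, 29.3 and 28.3 CPM in control and 19.3, 16.4, 20.9 and 18.4 in DEX libraries. Ptgs2 was low in DEX cells at both times without overlap, with a difference of 0.98 ± 0.11 (adjusted p = 3.24e-07). The adhesion molecule gene Vcam1 went past the control level. Vcam1 stood at 138, 145, 150.1 and 166 CPM in the control libraries of 17 h and at 54.7, 66.0, 58.5 and 66.3 in the DEX libraries. Vcam1 at 25 h read 239, 268, 264 and 264 CPM in control and 283, 299.6, 323 and 283 in DEX libraries. DEX libraries of Vcam1 were all below the controls at 17 h and all above them at 25 h (difference 1.49 ± 0.087, adjusted p = 7.73e-12), while control cells rose with time by 0.79 ± 0.060 and DEX cells by 2.28 ± 0.063.

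Of 31 interferon response genes, 10 differences were above and 2, Stat2 and Isg20, below 0 (7.91% and 8.27% of all genes). The median was 0.34, and 11 were lost. Of 15 falls called at 17 h, 10 were lost, against 815 of 2527 over all genes. Irf1, a transcription factor of this response, rose in both arms. Irf1 stood at 72.5, 78.4, 72.4 and 88.0 CPM in the control libraries of 17 h and at 46.9, 43.5, 50.9 and 52.6 in the DEX libraries. Irf1 at 25 h read 157, 163, 153 and 153 CPM in control and 157, 152, 147 and 134 in DEX libraries. Control cells rose by 1.01 ± 0.061 and DEX cells by 1.60 ± 0.064, which took the effect from -0.68 ± 0.066 to -0.089 ± 0.059 (difference 0.59 ± 0.088, adjusted p = 2.37e-05). The guanylate binding protein gene Gbp2 was lost with a difference of 1.32 ± 0.22, and it has close paralogs.

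Among the 77 reversed genes the change with time was called in control cells only for 14, in DEX cells only for 20 and in both for 43. Akap12 (ENSMUSG00000038587, chromosome 10, 4266380 to 4359470, plus strand in GRCm38), a scaffold of protein kinase A and the actin cortex, is one of the 14. Akap12 stood at 438, 475, 459 and 482 CPM in the control libraries of 17 h and at 639, 654, 632 and 604 in the DEX libraries. Akap12 at 25 h read 899, 940.0, 938 and 929.6 CPM in control and 662, 668, 681 and 515 in DEX libraries. The DEX groups covered like levels at both times apart from a low replicate 4 at 25 h, and the controls went from below them to above them. Control cells rose by 0.999 ± 0.060 and no change was called in DEX cells (adjusted p = 0.988), for a difference of -1.001 ± 0.085 (adjusted p = 5.69e-09).

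The focal adhesion gene Tns1 changed in both arms. Tns1 stood at 161, 171, 152 and 163 CPM in the control libraries of 17 h and at 312, 307, 293 and 311 in the DEX libraries. Tns1 at 25 h read 332, 328, 319 and 313 CPM in control and 288, 289.7, 283 and 266 in DEX libraries. Its control cells rose by 0.996 ± 0.041 and its DEX cells fell by 0.12 ± 0.041, so that a rise of 0.92 ± 0.041 became a fall of 0.20 ± 0.041 (difference -1.11 ± 0.058, adjusted p = 8.40e-13). The actin crosslinker Actn1 (0.40 at 17 h and -0.25 at 25 h, difference -0.65 ± 0.059) and the imprinted gene Peg3 (0.17 at 17 h and -0.17 at 25 h, -0.34 ± 0.050) reversed in the same direction with rising controls.

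**Figure D5:**
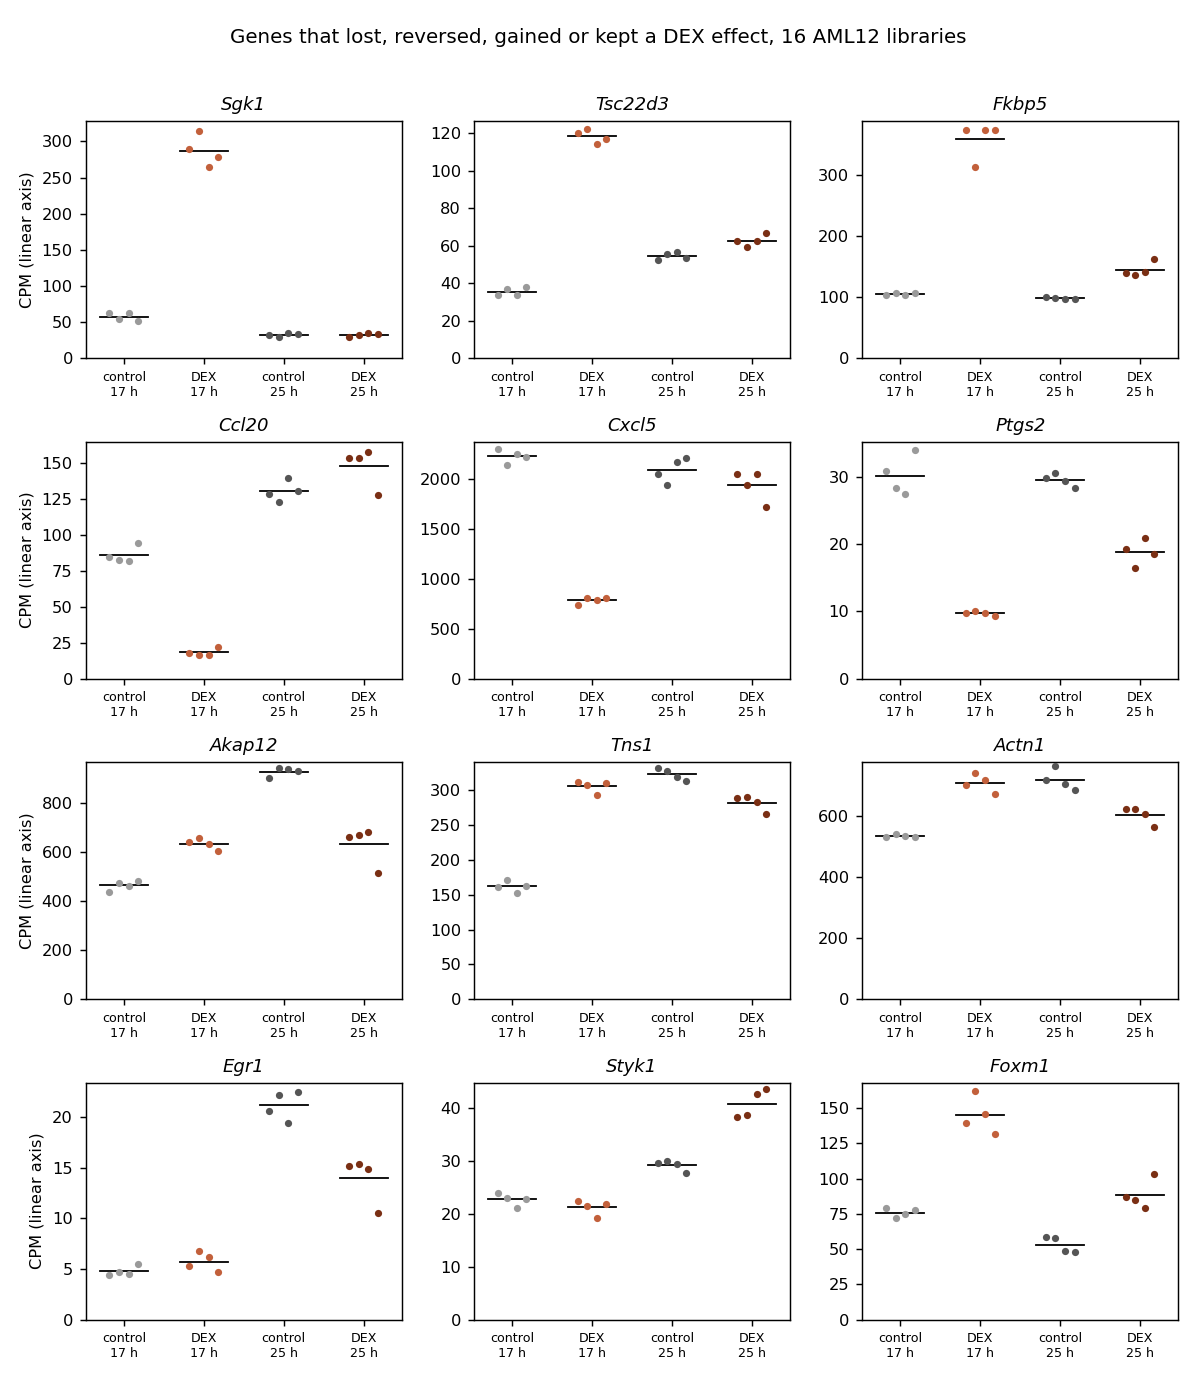
Level of 12 genes (CPM, linear axes from 0) in the 4 libraries of each AML12 group, replicates 1 to 4 from left to right, with the group mean as a line. Sgk1, Ccl20 and Cxcl5 lose the gap between DEX and control by 25 h; in Akap12, Tns1 and Actn1 the control libraries rise past the DEX libraries; Egr1 and Styk1 differ by treatment at 25 h, and Foxm1 at both times.

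In other reversals the DEX cells made the larger move. Prune2 went from 1.49 ± 0.055 to -0.20 ± 0.057, and the desmosome linker gene Ppl from 1.41 ± 0.043 to -0.14 ± 0.044, with DEX cells falling by 1.28 and 1.09 with time. Both counted as lost without DEX 25 h replicate 4. Lcn2, an iron-binding acute-phase protein, went from 0.23 ± 0.071 to -0.62 ± 0.072 (difference -0.85 ± 0.10), the Notch ligand Jag2 from 0.44 ± 0.049 to -0.23 ± 0.050, and the TGF-beta receptor Tgfbr1 from 0.34 ± 0.041 to -0.15 ± 0.042. In the other direction, the pantetheinase Vnn1 went from -1.22 ± 0.073 to 0.35 ± 0.069 (difference 1.57 ± 0.10) and the water channel Aqp1 from -0.66 ± 0.19 to 0.58 ± 0.13. The immune-linked receptor genes Csf1r (-0.45 at 17 h and 0.62 at 25 h) and Cd14 (-0.61 at 17 h and 0.14 at 25 h) were reversed upward too, in libraries where Ptprc and Lyz2 averaged 0.126 and 0.118 CPM.

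Of 23 rises called at 17 h among ribosome biogenesis genes, 14 were lost, against 866 of 2892 over all genes. Of 33 ribosome biogenesis genes, 0 differences were above and 16 below 0 (8.27% of all genes), with a median of -0.24, and 14 were lost rises. At an unadjusted p under 0.05, 1 (and 0 by DESeq2 or limma-voom) were above 0. Rises were called for 23 of them at 17 h and for 0 at 25 h. The direction of the lost differences follows from those rises and is no separate result. The box C/D snoRNP gene Nop56 stood at 112, 106, 110.2 and 105 CPM in control and 144, 139.9, 149.7 and 138 in DEX libraries at 17 h. Nop56 at 25 h read 78.6, 85.2, 80.3 and 84.0 CPM in control and 82.0, 76.02, 82.5 and 86.3 in DEX libraries. DEX libraries were the higher ones at 17 h and overlapped the controls at 25 h (difference -0.41 ± 0.061, adjusted p = 3.16e-05), and both arms fell with time, by 0.40 in control and 0.81 in DEX cells. The nucleolar genes Nolc1 (-0.50 ± 0.078), Rrp1b (-0.44 ± 0.070) and Rrp12 (-0.52 ± 0.086) had like differences. Total counts only gave 1 above and 14 below 0.

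Among 44 genes of the stress response to unfolded protein and amino acid shortage, 1 difference, that of Atf3, was above and 18 were below 0. Over all genes 7.91% were above and 8.27% below 0. The median of the list was -0.17. Of 33 rises called at 17 h, 9 were lost, 7 weakened and 10 kept, against 866, 144 and 605 of 2892 over all genes. The lost share was thus near that of all rises. Atf4, the central transcription factor of this stress response, stood at 189, 199, 195 and 203 CPM in control and 293, 334, 306 and 282 in DEX libraries at 17 h. At 25 h Atf4 read 180.5, 184, 191 and 176 CPM in control and 175, 177, 172 and 165 in DEX libraries. All DEX libraries were higher at 17 h and below or within the controls at 25 h (difference -0.71 ± 0.065, adjusted p = 1.60e-08). The membrane protein gene Herpud1 was lost (0.73 at 17 h and 0.054 at 25 h) and the serine enzyme Shmt2 weakened (0.90 at 17 h and 0.22 at 25 h; lost without DEX 25 h replicate 4), while the 10 kept genes include the chaperone genes Hspa5, Hsp90b1 and Calr.

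Gclc, the catalytic subunit of glutathione synthesis, lost a large rise. Gclc stood at 417, 408, 428 and 418 CPM in the control libraries of 17 h and at 841, 795, 798 and 805 in the DEX libraries. Gclc at 25 h read 299, 298, 276 and 298 CPM in control and 272, 268, 281 and 298 in DEX libraries. The DEX libraries were about level with the controls at 25 h, with overlap (difference -1.02 ± 0.057, adjusted p = 3.14e-12). The zinc and iron transporter Slc39a14 was lost as well (0.99 at 17 h and -0.089 at 25 h, difference -1.08 ± 0.049; reversed without DEX 17 h replicate 2), as was the ligand Wnt4 (1.07 at 17 h and -0.14 at 25 h, -1.21 ± 0.076). Of 29 cholesterol synthesis and uptake genes, 10 differences were below and 1, that of Pmvk, above 0 (8.27% and 7.91% of all genes), with 7 lost, 4 weakened and 12 kept. Of 24 rises called at 17 h, 6 were lost, 4 weakened and 12 kept, against 866, 144 and 605 of 2892 over all genes. The lost share of these rises was thus not above that of all rises, and the kept share was higher. Without both libraries that stood apart, 18 were below 0 and 4 were kept.

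Proliferation genes kept their rise. All 37 tested genes of G2 and mitosis rose at both times, 0 had a called difference in edgeR's test (2 at an unadjusted p under 0.05 and 0 by DESeq2 and 0 by limma-voom), and for all 37 the 95% interval of the difference lay within 1.5-fold. The median effect of the list was 0.67 at 17 h and 0.63 at 25 h. The 1.5-fold margin is only a little narrower than these medians, so a sizeable change within it could go unseen. Of 44 S phase genes 37 were kept, 34 of them within 1.5-fold, with medians of 0.60 and 0.64, and 3 differences were above (Cdc6, Gins2 and Dscc1) and 1 below 0 (Rrm2). Over all genes 6.48% were kept, 605 as rises and 310 as falls. Without DEX 25 h replicate 4, 35 genes of each list were kept, and the median difference was -0.12 for G2 and mitosis in place of -0.023, and 0.020 under total counts only. For S phase it was 0.025, and -0.015 without that library.

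Foxm1, the transcription factor of mitotic genes, is an example. Foxm1 stood at 79.2, 71.7, 74.7 and 78.0 CPM in the control libraries of 17 h and at 139, 162, 146 and 132 in the DEX libraries. Foxm1 at 25 h read 58.6, 57.6, 48.8 and 47.7 CPM in control and 86.8, 84.9, 79.4 and 103 in DEX libraries. DEX libraries were above the controls at both times. Both arms fell with time, by 0.52 ± 0.078 in control and 0.71 ± 0.072 in DEX cells, and the difference of -0.19 ± 0.11 was not called (adjusted p = 0.247). The mitotic kinase Plk1 (0.87 at 17 h and 0.62 at 25 h) and the kinesin Kif23 (0.20 at 17 h and 0.38 at 25 h) were kept, though Kif23 counted as strengthened without DEX 17 h replicate 2. Kept rises with an interval within 1.5-fold also include Asf1b, a histone chaperone (1.03 at 17 h and 0.76 at 25 h), E2f7, a cell cycle repressor (1.05 at 17 h and 0.82 at 25 h), and Rad51ap1, a DNA repair gene (0.98 at 17 h and 0.93 at 25 h). Among kept falls were the matrix gene Tnc (-1.46 at 17 h and -1.19 at 25 h), Csrp1 (-0.65 at 17 h and -0.56 at 25 h), the stress cytokine Gdf15 (-0.69 at 17 h and -0.56 at 25 h) and the oxygenase Fmo1 (-0.62 at 17 h and -0.75 at 25 h). Plk1, Asf1b, Tnc and Csrp1 counted as weakened without DEX 25 h replicate 4.

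A few replication genes departed from this. Rrm2, the small subunit of ribonucleotide reductase, was weakened. Rrm2 stood at 78.9, 69.1, 71.0 and 68.4 CPM in the control libraries of 17 h and at 209, 232, 214 and 209.9 in the DEX libraries. Rrm2 at 25 h read 45.2, 48.4, 44.5 and 39.6 CPM in control and 79.0, 76.2, 78.7 and 104 in DEX libraries. It was high in DEX cells at both times without overlap (difference -0.67 ± 0.11, adjusted p = 7.63e-05), and it was -0.78 without DEX 25 h replicate 4. The licensing factor Cdc6 was strengthened. Cdc6 stood at 16.0, 14.8, 14.0 and 13.6 CPM in the control libraries of 17 h and at 22.1, 22.2, 24.8 and 23.6 in the DEX libraries. Cdc6 at 25 h read 8.83, 6.55, 5.84 and 5.96 CPM in control and 14.8, 15.0, 13.3 and 15.1 in DEX libraries. Control cells fell by 1.11 ± 0.10 with time and DEX cells by 0.67 ± 0.088, for a difference of 0.44 ± 0.14 (adjusted p = 0.0279). Gins2 (0.40 ± 0.12), Dna2 (0.34 ± 0.12) and the growth factor Fgf1 (0.23 ± 0.066) are the other strengthened genes. Of the 16 fits that each left out 1 library, the call was lost in 6 for Cdc6, 10 for Gins2, 13 for Dna2 and 1 for Fgf1, and on the linear CPM scale Cdc6 turned to -0.81.

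Cytoskeletal and mechanical targets mixed kept and weakened falls. Of 19 SRF-linked actin genes 6 differences were above and 3 below 0 (Actn1, Flnc and Zyx), with 5 weakened, 5 kept, 2 gained, 1 lost and 1 reversed. Of 23 YAP/TEAD targets 7 were above and 3 below 0 (Ctgf, Axl and Myof), with 6 lost, 4 weakened and 7 kept. Over all genes 7.91% were above and 8.27% below 0, with 11.9% lost, 2.3% weakened and 6.48% kept. Thbs1, a matrix glycoprotein, stood at 272, 279, 267 and 272 CPM in control and 109.6, 107, 107 and 106 in DEX libraries at 17 h. Thbs1 at 25 h read 378, 369.6, 375 and 366 CPM in control and 285, 299.7, 297 and 286 in DEX libraries. Its DEX libraries were below the controls at both times, with a smaller ratio at 25 h (difference 0.99 ± 0.049, adjusted p = 2.92e-13). The YAP targets Ankrd1 (-1.21 at 17 h and -0.30 at 25 h) and Cyr61 (-0.95 at 17 h and -0.37 at 25 h) were weakened in the same way.

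Some weakened falls depend on the scale. Clca3b, of the chloride channel accessory family, stood at 14.2, 14.2, 14.3 and 15.9 CPM in control and 0.665, 1.52, 1.04 and 0.494 in DEX libraries at 17 h. At 25 h Clca3b read 37.6, 42.7, 40.0 and 48.7 CPM in control and 8.27, 9.06, 10.4 and 4.03 in DEX libraries. The libraries did not overlap at either time. On the ratio scale its difference was 1.56 ± 0.37 (adjusted p = 0.00177). On the linear scale the gap between the groups widened, and the difference turned to -20.6 CPM (adjusted p = 1.38e-05). Clca3b has close paralogs. Cnn1, a calponin (-2.29 at 17 h and -0.88 at 25 h), turned on the linear scale too, to -4.41 CPM. The GABA receptor subunit Gabrp (-3.10 at 17 h and -0.98 at 25 h) and Nrep (-2.10 at 17 h and -0.64 at 25 h) kept their sign of difference on it.

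Gained effects were small. The median absolute effect of the 104 gained genes was 0.070 at 17 h and 0.24 at 25 h, and for 81 of them the 17 h effect had the opposite sign. A called difference beside an uncalled 17 h effect favours opposite signs, so this count is no separate trait. The 92 genes with the difference only all had opposite signs. Styk1, a receptor-like kinase gene, gained a rise. Styk1 stood at 24.1, 23.0, 21.1 and 22.9 CPM in the control libraries of 17 h and at 22.6, 21.5, 19.2 and 22.0 in the DEX libraries. Styk1 at 25 h read 29.7, 30.1, 29.4 and 27.8 CPM in control and 38.4, 38.8, 42.8 and 43.6 in DEX libraries. The groups overlapped at 17 h and were apart at 25 h, with DEX higher (difference 0.58 ± 0.088, adjusted p = 3.30e-05). Nav2, of the neuron navigator family, (-0.068 at 17 h and 0.31 at 25 h), the integrin Itga2 (-0.10 at 17 h and 0.27 at 25 h), the replication factor Dscc1 (0.24 at 17 h and 0.90 at 25 h) and the sperm channel subunit Catsperg2 (-0.51 at 17 h and 0.79 at 25 h) were gained rises as well. Itga2 counted as reversed without DEX 17 h replicate 2, where that library read 373 CPM against 294 to 305 in the other 3.

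Several gained falls were genes that rose with time in control cells more than in DEX cells. Egr1, an immediate early transcription factor, stood at 4.43, 4.74, 4.51 and 5.52 CPM in control and 5.26, 6.78, 6.16 and 4.75 in DEX libraries at 17 h. Egr1 at 25 h read 20.6, 22.2, 19.4 and 22.5 CPM in control and 15.1, 15.4, 14.9 and 10.5 in DEX libraries. The groups overlapped at 17 h, and at 25 h every DEX library was below every control (difference -0.85 ± 0.18, adjusted p = 0.00115). Control cells rose by 2.14 ± 0.13 and DEX cells by 1.29 ± 0.12. The glucose transporter Slc2a1 was gained in this way (-0.041 at 17 h and -0.26 at 25 h, difference -0.22 ± 0.054, adjusted p = 0.00524), with a change of 0.28 ± 0.038 in control and 0.059 ± 0.038 in DEX cells. The matrix gene Adamtsl4 (0.11 at 17 h and -0.43 at 25 h), the neuropeptide precursor Vgf (-0.18 at 17 h and -0.68 at 25 h) and Ripor3 (0.37 at 17 h and -1.65 at 25 h) were gained falls too, with no called rise in control cells for Vgf and Ripor3.

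Immediate early genes did not share a class. Of 25 tested, 6 differences were above and 10 below 0 (7.91% and 8.27% of all genes). In class, 6 were lost, 6 weakened, 3 gained (Egr1, Klf4 and Nr4a1), 1 reversed and 3 kept (Junb, Ier5 and Trib1). Over all genes 11.9% were lost, 2.3% weakened, 0.737% gained, 0.546% reversed and 6.48% kept. Fos, a subunit of AP-1, was the reversed gene. Fos stood at 3.14, 3.05, 3.31 and 2.79 CPM in the control libraries of 17 h and at 4.36, 4.69, 4.51 and 4.94 in the DEX libraries. Fos at 25 h read 2.43, 2.67, 3.51 and 2.66 CPM in control and 1.94, 2.02, 1.93 and 2.20 in DEX libraries. DEX libraries were the higher ones at 17 h and the lower ones at 25 h (difference -1.07 ± 0.19, adjusted p = 0.000184). Falls were called for 10 of the list at 17 h and for 13 at 25 h, and rises for 7 and 0. Over all genes falls were called for 17.9% and 4.96%, and rises for 20.5% and 6.79%.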

How the data were processed

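The deposited AML12 table holds read counts per gene, whole numbers that were not normalized, 1 column a library, for 27843 genes. FastQC 0.11.8 and STAR with builds mm10 and GRCm38 are named per the submitters' processing notes. The counter and strand setting were not given in the sources used here, and reads shared by overlapping or antisense genes may be counted for either. RNA was taken with TRIzol and libraries made with NEBNext Ultra II reagents, per the labels' protocols. No per-sample column was left unmapped.

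Groups come from the labels. The 14114 genes kept by filterByExpr were scaled by TMM and tested two-sided by quasi-likelihood in edgeR 4.0.16 (R 4.3.3), with 1 mean per group over all 16 libraries (12 residual degrees of freedom), and adjusted by Benjamini-Hochberg over all of them. The SE comes from the fit's weights and the posterior quasi-dispersion. Values after ± are SE for log2 differences and SD of 4 libraries for CPM. CPM use TMM-scaled totals. The test was tried on simulated counts. Alternatives were RLE size factors, total counts, no filter, DESeq2 1.42.0, limma-voom 3.58.1, a replicate block, a linear CPM scale, other thresholds, and leaving out each library or the pair that stood apart. Counting intervals were not used, as group spread covers them.

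Members and lists were chosen with earlier results of these data known. Named genes are those of the largest differences in each class with at least 1 CPM, all clock genes and up to 4 genes a list by p, 238 in all, of which 195 had a called difference. Some of them are not reported here. The text gives 116 genes with values, picked after their values were seen, and genes named without values are list members, also chosen so. Positions come from GENCODE M21 and promoters from RefSeq, which held 81 of these genes.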

Additional observations from a re-analysis of the deposited data

Results flagged for a closer look

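Among the 116 genes given with values, 42 of 464 groups of 4 held a library whose level stood apart from the other 3 by Dixon's 95% limit, where chance gives about 1 in 20. DEX 25 h replicate 4 accounts for 14 of them, and its part in the results was tested only by leaving it out. Levels of DEX 25 h replicate 4, in CPM, stood apart for Adam12 (24.6, others 17.4 to 18.0), Akap12 (515, others 662 to 681), Arntl (15.8, others 13.8 to 14.0), C3 (1871, others 2243 to 2274), Ccl20 (128, others 153 to 158), Cnn1 (5.37, others 10.9 to 11.7), Csrp1 (137, others 188 to 193), Egr1 (10.5, others 14.9 to 15.4), Gabrp (9.89, others 16.6 to 17.0), Nr1d1 (52.5, others 35.6 to 38.4), Ppara (2.81, others 1.37 to 1.56), Rrm2 (104, others 76.2 to 79.0), Sult1a1 (4.46, others 1.501 to 1.74) and Tnc (15.6, others 24.0 to 25.2). Levels of DEX 17 h replicate 2, in CPM, stood apart for Fkbp5 (314, others 374 to 375), Gabrp (4.56, others 2.96 to 3.23), Herpud1 (304, others 253 to 258), Itga2 (373, others 294 to 305) and Vnn1 (15.1, others 12.9 to 13.3). DEX 17 h replicate 3 did so for C3 (1497, others 1444 to 1452), Dscc1 (7.14, others 5.99 to 6.05) and Rrp12 (61.5, others 56.7 to 57.5). Control 25 h replicate 1 did so for Gclm (114, others 123 to 124), Ppara (1.01, others 1.15 to 1.17) and Vcam1 (239, others 264 to 268). DEX 25 h replicate 3 did so for Peg3 (702, others 667 to 673) and Shmt2 (74.3, others 81.5 to 82.4). DEX 17 h replicate 4 did so for Birc3 (69.5, others 62.2 to 63.2) and Rad51ap1 (13.2, others 15.1 to 15.3). Control 17 h replicate 4 did so for Clca3b (15.9, others 14.2 to 14.3) and Rrp1b (37.0, others 35.7 to 35.9). Control 17 h replicate 1 did so for E2f7 (16.2, others 12.6 to 13.0) and Nolc1 (135, others 118 to 119). Control 17 h replicate 3 did so for C2 (15.0, others 11.7 to 12.1) and Cry2 (20.5, others 18.0 to 18.3). Control 17 h replicate 2 did so for Asf1b (14.5, others 17.1 to 17.6) and Prune2 (44.9, others 38.7 to 39.5). Control 25 h replicate 4 did so for Notch4 (3.65, others 5.88 to 6.07) and Rrp12 (34.9, others 37.7 to 38.2). DEX 25 h replicate 1 did so for Csf1r (9.92, others 11.3 to 11.3). Control 25 h replicate 2 did so for Vgf (8.86, others 7.87 to 7.98). Control 25 h replicate 3 did so for Gclc (276, others 298 to 299). The DEX effect itself differed between the times, by the test of the difference, for 2283 genes, and 77 of these were called at both times with opposite signs.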

How the results depend on the processing

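The 4 strengthened genes became 10 under total counts only, 9 with no low-count filter, 10 on the linear CPM scale and 8 without both libraries that stood apart, where 146 genes had a difference with neither effect called. The share of differences above 0 was 48.9%, 62.2% under total counts only and 39% on the linear scale (median difference of all genes 0.0488 and -0.0402). At an adjusted p of 0.01, 1334 differences were called (652 above, 682 below 0) and 1002 effects at 25 h, with 1074 lost, 165 weakened, 0 strengthened, 33 reversed, 29 gained and 33 with the difference only. With single-time effects called at an unadjusted p of 0.05, 3360 genes were called at 25 h, 513 were weakened, 8 strengthened, 249 reversed, 1619 kept and 0 had the difference only. With at least 1.2-fold required, 3362 genes were called at 17 h, 919 at 25 h and 3758 for the change in control cells, with 173 weakened, 18 reversed, 45 gained, 238 with the difference only and 546 kept. Leaving out 1 library in turn gave 1962 to 2657 called differences, 1417 to 1811 lost, 252 to 453 weakened, 1 to 9 strengthened, 57 to 123 reversed, 64 to 162 gained and 621 to 1097 kept. On the linear scale the difference, in CPM, changed sign for these genes: Cnn1 -4.41, Cdc6 -0.81, Csrp1 -26.1, Tnc -10.4, Clca3b -20.6, Gdf15 -0.15, Fmo1 0.35. It changed sign when 1 library was left out for Bhlhe40 -0.018 to 0.11, Rad51ap1 -0.16 to 0.029 (log2 range), all uncalled differences. Calls that ended in at least 1 of those 16 fits were Cdc6 (6, adjusted p up to 0.0818), Clock (1, adjusted p up to 0.0507), Dna2 (13, adjusted p up to 0.107), Fgf1 (1, adjusted p up to 0.0583), Gins2 (10, adjusted p up to 0.0788), Phlda3 (12, adjusted p up to 0.107). Of the genes given with values, calls ended or began for 0 and 0 with RLE size factors, 2 and 1 under total counts only, 1 and 1 with no filter, 1 and 1 in DESeq2, 2 and 1 in limma-voom and 4 and 6 on the linear scale. The replicate numbers showed no general pairing: 8 of 24 pairs of same-numbered libraries correlated above 0.1 (-0.351 to 0.296), and 5 of 16 libraries correlated best with their own number. Same-numbered control and DEX libraries of 25 h correlated at 0.116, 0.201, 0.256 and 0.088, and a pairing within that time alone was not tested. With the replicate block 2208 differences were called, 2157 of them shared with the report. Depth limits low genes such as Ccl3, Sult1a1 and Ripor3 most.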

Other observations

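Acute-phase and metal genes held differences in both directions. In lost and weakened genes the sign of the difference follows from that of the 17 h effect, so it is no separate result. Of 17 acute-phase and complement genes, 7 differences were above and 3 below 0 (7.91% and 8.27% of all genes), with a median of 0.26. Haptoglobin (Hp) kept a remnant of its rise (1.55 at 17 h and 0.63 at 25 h, difference -0.92 ± 0.14, adjusted p = 3.58e-05), and hemopexin (Hpx) a remnant of its fall (-1.52 at 17 h and -0.66 at 25 h, 0.86 ± 0.12). The complement genes C3 (-0.56 at 17 h and -0.30 at 25 h) and C2 (-0.71 at 17 h and -0.15 at 25 h) had falls that were weakened and lost. Of 11 genes of metal handling, 5 were above and 3 below 0. Mt1, a metallothionein, lost a rise (0.38 at 17 h and 0.0091 at 25 h), the ferritin gene Fth1 was weakened (0.60 at 17 h and 0.26 at 25 h), and the iron exporter Slc40a1 kept part of a fall (-0.81 at 17 h and -0.38 at 25 h).

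Of 33 genes of NRF2 and glutathione defence, 10 differences were above and 3 below 0. Over all genes 7.91% were above and 8.27% below 0, the shares to set beside each list of this paragraph. Gclc lost a rise, while Gclm, the regulatory subunit of the same enzyme, lost a fall (-0.33 at 17 h and -0.017 at 25 h, difference 0.31 ± 0.060, adjusted p = 0.000559). The export pump Abcc2 lost a fall as well (-0.80 at 17 h and 0.057 at 25 h, 0.86 ± 0.095), with its control cells falling by 0.69 ± 0.065 with time. Of 14 Notch genes 4 differences were below 0, Notch1 (-0.70 ± 0.086), Notch4 (-1.24 ± 0.18), Jag2 and Dtx4 (-0.36 ± 0.053). None was above 0 in edgeR's test (2 at an unadjusted p under 0.05, 0 by DESeq2), though 2 were under total counts only. Of 26 p53 targets 4 were above and 7 below 0, and the cell cycle inhibitor Cdkn1a gained a fall: it averaged 206 ± 8.65 CPM in control and 188 ± 16.1 in DEX cells at 17 h and 289 ± 11.6 and 213 ± 14.8 at 25 h (SD, n = 4; difference -0.31 ± 0.079, adjusted p = 0.00789). Phlda3 (-0.23 ± 0.079) and Zmat3 (-0.24 ± 0.067) gained falls too. Without DEX 25 h replicate 4, Cdkn1a counted as strengthened and Phlda3 as kept.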
